A study of Mus musculus with 10 samples.

Results

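The mitochondrial respiratory chain and ATP synthase are built from nuclear and mitochondrial genes, and the nuclear genes of the 5 complexes are described here in mouse hematopoietic progenitor cells (HPC). Members were the protein-coding genes whose symbols begin with Ndufa, Ndufb, Ndufc, Ndufs or Ndufv (complex I), are Sdha, Sdhb, Sdhc or Sdhd (complex II), begin with Uqcr or are Cyc1 (complex III), begin with Cox4 to Cox8 except Cox6a2 (complex IV), or begin with Atp5 (complex V). The choice used names only, and 93 of the 38887 genes in the table were members, 46 of complex I, 4 of complex II, 9 of complex III, 17 of complex IV and 17 of complex V. The names also bring in 8 Ndufaf assembly factors with complex I, and they place Ndufa4, which is known as a complex IV subunit, in complex I.

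The HPC came from bone marrow of mice bearing Lewis lung carcinoma (LLC) tumours. The CK2i group (5 libraries) was from mice given BMS-595, which inhibits protein kinase CK2, at 60 mg/kg for 2 weeks, and the vehicle group (5 libraries) was from tumour-bearing mice given vehicle, which the sample titles call untreated. Both groups therefore carried tumours, no tumour-free mice are among the samples, and the labels name no altered gene, strain background, age or sex of the animals. Whether each library is its own mouse is not in the labels, and p-values cover the spread between these libraries only, some of which may be technical. Total RNA was sequenced as 75-base pairs, and the totals ran from 34127674 to 40811539 counts in CK2i libraries and from 37569160 to 43636152 counts in vehicle libraries. The progenitor markers Kit (225 ± 19.2 CPM in CK2i and 269 ± 16.0 CPM in vehicle libraries, SD, n = 5 each) and Myb (520 ± 15.6 CPM in CK2i and 543 ± 37.7 CPM in vehicle libraries) were well detected. CPM is the TMM-scaled count relative to the library total. A pair of CK2i libraries stood apart on the first principal component of all genes tested: CK2i 2 lay at -43.26 and CK2i 5 at -43.68, against -12.48 to 4.1 for the other CK2i libraries and 9.37 to 29.62 for the vehicle libraries. The calls are therefore also given without them.

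Complex I (NADH dehydrogenase) and complex II (succinate dehydrogenase, which is also a citric acid cycle enzyme) pass electrons to ubiquinone, complex III passes them to cytochrome c, and complex IV (cytochrome c oxidase) passes them to oxygen. Complexes I, III and IV pump protons as they do so, and complex V (ATP synthase) uses the proton gradient to make ATP. Blood stem cells are known to rely less on this pathway than their dividing progeny, and the transcription factors NRF1, GABPA and YY1 are known for binding promoters of nuclear respiratory genes.

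What members share beyond their names was looked at in their promoters. The windows of RefSeq annotation on GRCm38.p6 run from 250 bases before to 50 bases after the transcript start, and 74 of the 93 members had one. The sequences of 4 members that were lower in CK2i libraries are shown 5′ to 3′ on the gene's strand: a complex II and a complex I gene with a single match, and a complex IV pair, of which one holds 3 matches and the other none. Capitals mark matches, on either strand, to GCGC and TGCGC with any base between them (NRF1), CCGGAAG (ETS family, to which GABPA belongs) or AAGATGGCG (YY1).
Sdhb, chr4:140961021-140961320, plus strand: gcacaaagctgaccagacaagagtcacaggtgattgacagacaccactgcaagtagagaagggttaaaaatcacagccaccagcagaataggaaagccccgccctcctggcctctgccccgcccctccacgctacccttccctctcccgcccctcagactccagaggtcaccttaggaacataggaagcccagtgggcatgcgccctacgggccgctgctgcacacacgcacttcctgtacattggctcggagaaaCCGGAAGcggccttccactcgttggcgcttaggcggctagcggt
Ndufa9, chr6:126849095-126849394, minus strand: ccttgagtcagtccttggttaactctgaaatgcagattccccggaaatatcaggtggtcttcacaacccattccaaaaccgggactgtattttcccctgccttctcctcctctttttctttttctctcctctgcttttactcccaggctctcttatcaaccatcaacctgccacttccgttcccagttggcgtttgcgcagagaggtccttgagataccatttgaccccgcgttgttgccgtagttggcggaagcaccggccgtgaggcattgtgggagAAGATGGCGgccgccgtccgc
Cox6a1, chr5:115348909-115349208, minus strand: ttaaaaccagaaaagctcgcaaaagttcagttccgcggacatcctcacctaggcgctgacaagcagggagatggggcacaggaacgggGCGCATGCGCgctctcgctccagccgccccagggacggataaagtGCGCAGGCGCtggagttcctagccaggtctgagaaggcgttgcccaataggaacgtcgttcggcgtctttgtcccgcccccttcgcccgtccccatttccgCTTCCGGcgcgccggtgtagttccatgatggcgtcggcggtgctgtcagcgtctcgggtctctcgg
Cox6b2, chr7:4753045-4753344, minus strand: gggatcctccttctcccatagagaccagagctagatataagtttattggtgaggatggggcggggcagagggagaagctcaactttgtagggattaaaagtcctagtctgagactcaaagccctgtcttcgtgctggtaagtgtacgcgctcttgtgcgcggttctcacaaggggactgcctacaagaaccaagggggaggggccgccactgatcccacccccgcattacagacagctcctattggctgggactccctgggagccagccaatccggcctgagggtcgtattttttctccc
The Sdhb match is of the ETS form and begins at base 7 after the start, and the Ndufa9 match is of the YY1 form and begins at base 30. In the Cox6a1 window the NRF1 letters begin at -162 and -117 and the ETS letters at -16. The match at -162 reads on both strands, and those at -117 and -16 are on the opposite strand.

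Members and tested genes were counted once each, by a match in any of their windows, while the share of all windows counts single windows. The shares of genes and of windows are therefore not like for like. The NRF1 letters stood in 19 of 74 members with a window (25.7%), against 4.6% of all 32851 windows and 11.2% of the 10407 tested genes with a window. For the ETS letters the count was 18 members (24.3%), against 8.86% of all windows and 20% of those tested genes. For the YY1 letters it was 8 members (10.8%), against 1.4% and 3.53%. At least 1 of the 3 was found in 38 members (51.4%), against 13.6% of all windows and 30.8% of those tested genes. By complex these were 19 of 40 members with a window in complex I, 3 of 3 in complex II, 3 of 5 in complex III, 3 of 13 in complex IV and 10 of 13 in complex V. The median log2 difference between the treatments was -0.084 over the 37 tested members with a match and -0.075 over the 33 without one. A match is a run of letters and not evidence of binding.

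Levels between genes were compared per length, as the deposited FPKM. Members were abundant transcripts, and the median level was higher from complex to complex along the chain. Over the members above 0, which are all members of complexes I to III, 14 of 17 in complex IV and 16 of 17 in complex V, the median mean FPKM over 10 libraries was 93.9 in complex I, 122 in complex II, 186 in complex III, 238 in complex IV and 305 in complex V, against 11.1 over all genes tested. With the members listed at 0 included, it was 192 in complex IV and 298 in complex V. The highest member was Atp5b, the catalytic beta subunit of ATP synthase, with 1016 ± 81.2 FPKM in CK2i and 1064 ± 30.6 FPKM in vehicle libraries (SD, n = 5 each). The highest members of the other complexes were Cox4i1 (494 FPKM over the 10 libraries), Ndufa4 (410.1 FPKM), Uqcr11 (399 FPKM) and Sdhd (159 FPKM). At the low end of the tested members stood Cox4i2 (0.841 FPKM), Atp5s (5.6 FPKM), a coupling factor, and Ndufaf5 (11.6 FPKM). Within complex I the 7 core subunits, which carry out electron transfer, lay between 68.1 FPKM (Ndufs8) and 129 FPKM (Ndufv2), while all 8 assembly factors lay between 11.6 FPKM (Ndufaf5) and 28.7 FPKM (Ndufaf2), below every core subunit. Neighbours in these orders could overlap, as Sdha and Sdhb of complex II show. In CK2i libraries Sdha (121 to 127 FPKM) lay above Sdhb (105 to 117 FPKM), while in vehicle libraries Sdha (124 to 131 FPKM) and Sdhb (122 to 134 FPKM) overlapped.

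**Figure D1:**
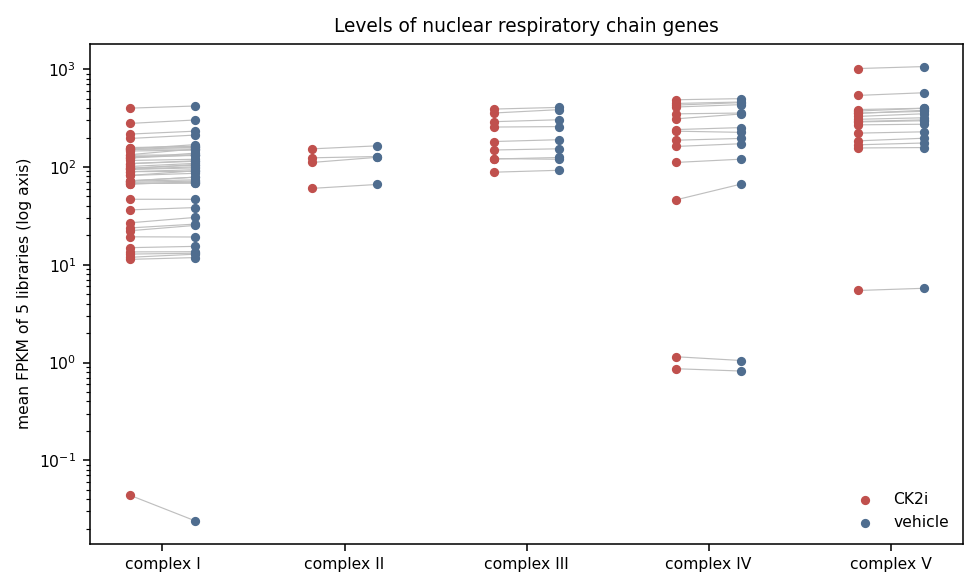
Mean deposited FPKM (log axis) of each member above 0, by complex, in CK2i (left, red) and vehicle (right, blue) libraries, with a line joining the means of a gene. Complex V holds the highest member (Atp5b, 1016 FPKM in CK2i and 1064 FPKM in vehicle libraries), and in the main cluster of each complex nearly all lines slope slightly up toward vehicle.

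Of the 93 members, 87 passed the filter on low counts and were tested. The other 6 are isoforms known from particular tissues, and Atp5g2. Atp5g2, 1 of the 3 genes for subunit c of the ATP synthase ring and known as widely expressed, is listed at 0 in all 10 libraries, and whether the annotation or read assignment set this value was not tested. Cox7b2 and Cox8c (known from testis) and Cox8b (known from heart and muscle) also had 0 counts in all 10 libraries, and a count of 0 allows up to 3 counts, which is 0.0879 CPM in the shallowest library (counting error only). Cox7a1 (known from heart and muscle) had 5 to 13 counts per library and Ndufa4l2 had 0 to 2. Shared reads make a few levels uncertain: the processed pseudogene Ndufb4c was listed at 116 to 130.4 FPKM in CK2i and 124 to 140.1 FPKM in vehicle libraries, above Ndufb4 itself (46.8 FPKM in CK2i and 46.7 FPKM in vehicle libraries), and Ndufb2, Ndufb8, Ndufb9, Ndufa13 and Cox4i1 overlap another protein-coding gene of the annotation on the same strand.

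Across the chain, fitted differences of the members were small and mostly below 0. By edgeR's quasi-likelihood test 0 members rose (0 also at an unadjusted p under 0.05, and 0 with DESeq2) and 7 fell at an adjusted p under 0.05. Members that fell numbered 12 with DESeq2, where 1463 of 22935 genes fell, and 4 with no filter, where 719 of 22935 fell. They numbered 3 with limma on FPKM at each pseudocount, where 591 and 593 of 14346 genes fell. They numbered 0 with 1 surrogate variable (29 of 14346 genes) and 0 with replicate number as a block (682 of 14346 genes). The 7 were the complex II genes Sdhb and Sdhc, the complex I genes Ndufa9, Ndufa1 and Ndufa6, and the complex IV genes Cox6b2 and Cox6a1. The 7 are 7 of 87, beside 6.76% of all 14346 genes tested that fell and 6.43% that rose by the same rule. In this fit the share of called members was therefore near that of all genes, while with DESeq2 it was higher. The direction was less like the rest of the table: 83 of 87 members had a log2 difference below 0, against 50.2% of all genes tested, and the 4 above 0 were Ndufaf8, Uqcrq, Cox5a and Cox4i2, none of which passed the test. With 1 surrogate variable 62 members were below 0. The median log2 difference of the members was -0.08 (0.947-fold), with a range of -0.52 to 0.08, against -0.0006 over all genes tested. Differences were small, with Ndufa6 at -0.20 next to Cox6b2 at -0.52, and the members' standard errors were small too (median 0.05 on the log2 scale, against 0.09 over all genes). In bulk RNA, fewer cells of a type and less RNA per cell cannot be told apart. In the GENCODE annotation of GRCm38 the 7 protein-coding genes are Sdhb (chr4:140961203-140979193, plus strand, ENSMUSG00000009863), Sdhc (chr1:171127165-171150603, minus strand, ENSMUSG00000058076), Ndufa9 (chr6:126821721-126849136, minus strand, ENSMUSG00000000399), Ndufa1 (chrX:37187588-37191163, minus strand, ENSMUSG00000016427), Ndufa6 (chr15:82350140-82354322, minus strand, ENSMUSG00000022450), Cox6b2 (chr7:4751792-4753094, minus strand, ENSMUSG00000051811) and Cox6a1 (chr5:115345642-115348981, minus strand, ENSMUSG00000041697).

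For 9 members all 5 CK2i libraries lay below all 5 vehicle libraries, and for 0 members all lay above, beside 5.76% and 5.18% of all genes tested. The 9 were Ndufb8, Ndufa9, Ndufa6, Ndufa1 and Ndufaf2 of complex I, Sdhb and Sdhc of complex II, Cox6b2 of complex IV and Atp5j of complex V. As a sum, members made up 1.09% ± 0.0595 of the counts in CK2i and 1.14% ± 0.0241 in vehicle libraries (SD, n = 5 each), and these ranges overlapped. Without CK2i 2 and CK2i 5, 71 of 88 tested members were below 0, against 50.8% of genes, 70 of them among the 83 that were below 0 with all libraries, but the median shrank to -0.04 and Cox6b2 was the 1 member that passed the test. With 1 library left out, 1 member fell without CK2i 2 and 1 without CK2i 5, 2 without vehicle 2 and 2 without vehicle 3, and 0 without vehicle 1, vehicle 4 or vehicle 5. Over all genes, of 14426 to 14485 tested, 352, 254, 856, 406, 276, 291 and 301 fell in these fits, in the same order. Without both CK2i 2 and CK2i 5, 102 of 14583 genes fell. Sdhb passed in 5 of the 10 fits (without CK2i 1, CK2i 3, CK2i 4, vehicle 2 or vehicle 3) and Cox6b2 in 5 (without CK2i 1, CK2i 3, CK2i 4, CK2i 5 or vehicle 2). Ndufa9 and Sdhc passed in 3 (without CK2i 1, CK2i 3 or CK2i 4), Ndufa6 in 3 (without CK2i 2, CK2i 3 or CK2i 4), Cox6a1 in 3 (without CK2i 3, CK2i 4 or vehicle 3) and Ndufa1 in 2 (without CK2i 1 or CK2i 3).

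**Figure D2:**
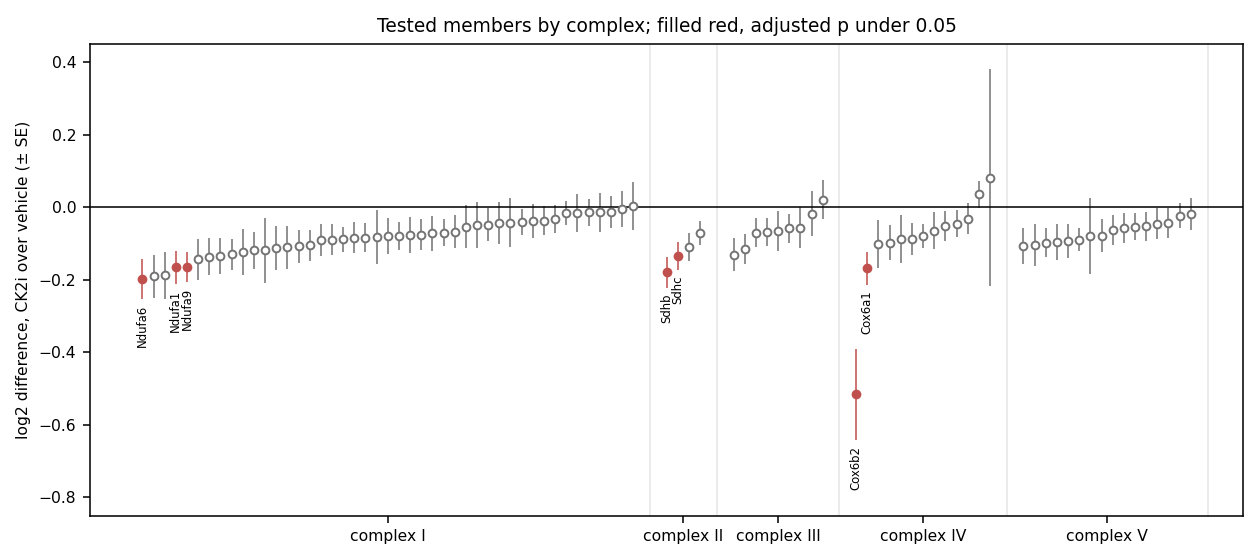
Log2 difference (CK2i over vehicle, ± SE) of the 87 tested members, sorted within each complex, with members past an adjusted p of 0.05 filled in red and named. The points lie mostly between -0.2 and 0, 83 of 87 are below 0, and Cox6b2 stands apart at -0.52.

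The lower values were not spread evenly over the libraries. The mean deviation of the tested members from their vehicle mean, on the log2 CPM scale, was -0.05, -0.18, -0.06, -0.01 and -0.11 in CK2i 1 to 5, against 0.03, 0.04, -0.05, -0.03 and 0.02 in vehicle 1 to 5. CK2i 2 and CK2i 5 lay lowest, CK2i 4 lay within the vehicle range, and CK2i 1 lay at its edge. CK2i 2 lay lowest and CK2i 5 next in each complex: CK2i 2 was at -0.18 in complex I, -0.19 in complex II, -0.15 in complex III, -0.19 in complex IV and -0.17 in complex V, while CK2i 4 was at -0.03, -0.06, 0.02, 0.02 and 0.02 in the same order. In complex II alone, all 5 CK2i libraries (-0.19 to -0.06) lay below all 5 vehicle libraries (-0.03 to 0.05). CK2i 2 was the lowest of all 10 libraries for 62 of 87 members (71.3%), against 19.6% of all genes tested, and vehicle 2 was the highest for 36 members (41.4%), against 7.0% of genes.

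**Figure D3:**
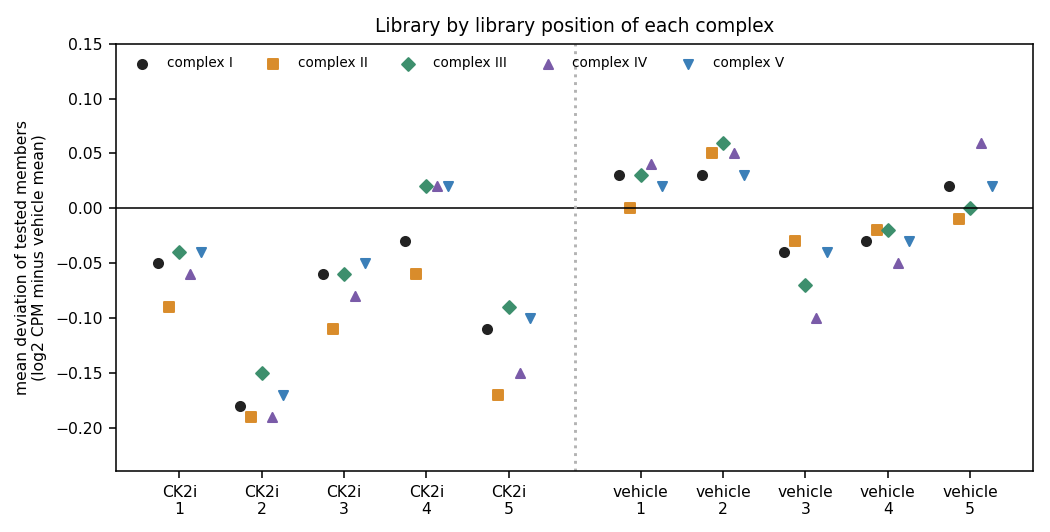
Mean deviation of the tested members of each complex from their vehicle mean (log2 CPM) in each library, CK2i on the left and vehicle on the right. In all 5 complexes CK2i 2 and CK2i 5 lie lowest, and CK2i 4 lies among the vehicle libraries except for complex II. In CK2i 4 and vehicle 5 the complexes differ in sign.

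Other measures moved with the members and are given with their values. Members were short: their median effective length, derived from the deposited counts and FPKM, was 557 bases, against 2091 bases over the 12449 tested genes with a value. Of 3370 other tested genes between 335 and 1466 bases (the central range of member lengths), 61.3% had a log2 difference below 0, with a median of -0.05, and their median deviation was -0.11 in CK2i 2 and -0.07 in CK2i 5. Of 6011 other genes in the central range of member levels, 24.5 to 189 CPM, 52.4% were below 0. Marker lists of other blood cell types moved as well. Of 12 granulocyte markers 7 rose, with summed levels of 4995 to 8140 CPM in CK2i and 2663 to 5446 CPM in vehicle libraries, and of 9 monocyte and macrophage markers 4 rose, with 773 to 1142 CPM in CK2i and 544 to 873 CPM in vehicle libraries. Of 7 megakaryocyte and platelet markers 4 fell (1223 to 2608 CPM in CK2i and 2173 to 3410.0 CPM in vehicle libraries), and of 11 erythroid markers 4 rose and 3 fell (2525 to 3332 CPM in CK2i and 3159 to 4408 CPM in vehicle libraries). Of the B lymphoid and plasma markers 1 of 4 tested fell (Jchain), with 4 of 7 under 1 CPM in every library, of the T and NK markers 1 of 3 tested fell (Lat, 30 CPM in CK2i and 56.7 CPM in vehicle libraries), Nkg7 had 57.8 CPM in CK2i and 40.4 CPM in vehicle libraries, and 3 of 6 (Cd3e, Cd3g and Cd8a) were under 1 CPM in every library, and of the stromal and endothelial markers 2 of 7 fell. The carcinoma epithelial markers summed to 8.24 to 10.8 CPM in CK2i and 5.41 to 11 CPM in vehicle libraries and none passed the test. The part of transcript length and of cell makeup in the members' lower values was not tested.

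In complex I, 44 of 45 tested members were below 0 and 3 fell, all of them accessory subunits, which surround the core. The median log2 difference was -0.05 over the 7 core subunits, -0.08 over the 30 tested accessory subunits and -0.10 over the 8 assembly factors. No core subunit passed the test, and the core members ran from -0.11 (Ndufs7) to -0.01 (Ndufs8). Ndufa9, an accessory subunit near the quinone site, had 98.8, 87.7, 95.4, 99.5 and 91.1 CPM in CK2i 1 to 5, against 106, 110.0, 104, 106 and 104 CPM in vehicle 1 to 5. Every CK2i library lay below every vehicle library. The log2 difference was -0.16 ± 0.04 (SE), with an adjusted p of 0.0335 by edgeR's quasi-likelihood test, and without CK2i 2 and CK2i 5 it was -0.12 with an adjusted p of 0.123. The gene overlaps the antisense gene 1700018A23Rik by 2801 bases, so without a stated strand setting their reads cannot be told apart there.

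Ndufa6, a LYR-motif accessory subunit of complex I, had 53.2, 45.5, 55.3, 56.2 and 52.8 CPM in CK2i 1 to 5, against 60.6, 59.4, 59.8, 61.6 and 60.3 CPM in vehicle 1 to 5. The vehicle libraries were tightly grouped and all lay above the CK2i libraries, of which CK2i 2 was farthest away. This was the most negative difference of complex I (log2 -0.20 ± 0.05, edgeR adjusted p = 0.0393; 0.102 without CK2i 2 and CK2i 5). Ndufa1, a small membrane subunit needed for assembly and encoded on the X chromosome, had 32.5, 31.6, 32.2, 30.3 and 29.7 CPM in CK2i 1 to 5, against 34.7, 35.9, 37.1, 33.9 and 34 CPM in vehicle 1 to 5. The groups did not overlap, and here CK2i 2 was not the lowest library. The log2 difference was -0.17 ± 0.04 (edgeR adjusted p = 0.0386; 0.157 without CK2i 2 and CK2i 5). Ndufb8 (117 ± 3.84 CPM in CK2i and 125 ± 2.63 CPM in vehicle libraries) and the assembly factor Ndufaf2 (13.7 ± 0.989 CPM in CK2i and 15.7 ± 0.797 CPM in vehicle libraries) did not overlap between groups either but missed the threshold (edgeR adjusted p = 0.0949 and 0.07). Ndufaf1, named after its values were seen, had 25.8 ± 1.65 CPM in CK2i and 29.5 ± 1.63 CPM in vehicle libraries (log2 -0.19 ± 0.06, edgeR adjusted p = 0.0518). The most abundant member by FPKM, Ndufa4, had 130 ± 5.74 CPM in CK2i and 137 ± 5.51 CPM in vehicle libraries (edgeR adjusted p = 0.224), and the assembly factor Ndufaf8, the 1 member above 0, had 11.8 CPM in each group (log2 0.0027, edgeR adjusted p = 0.983).

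Complex II had the most negative median of the complexes (-0.12, or 0.919-fold), with all 4 genes below 0 and 2 of them lower by the test. No gene of it is encoded in mitochondrial DNA, so the whole complex is covered here. Sdhb, the iron-sulfur subunit, had 112, 103, 111, 113 and 103 CPM in CK2i 1 to 5, against 124, 130, 120, 119 and 120 CPM in vehicle 1 to 5. The highest CK2i library lay below the lowest vehicle library. With a log2 difference of -0.18 ± 0.04 it had the smallest adjusted p of the members (0.0261 by edgeR's quasi-likelihood test; -0.14 and 0.114 without CK2i 2 and CK2i 5). Sdhc, a membrane anchor, had 86.5, 78.9, 85.3, 86.6 and 80.8 CPM in CK2i 1 to 5, against 91.6, 95.5, 92.7, 89.9 and 89.3 CPM in vehicle 1 to 5. The groups did not overlap (log2 -0.13 ± 0.04, edgeR adjusted p = 0.0436; 0.191 without CK2i 2 and CK2i 5). On the deposited FPKM scale they did, with 52.4 to 65.9 FPKM for Sdhc in CK2i and 60.02 to 72.4 FPKM in vehicle libraries.

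The other two genes of complex II did not pass. Sdhd, the second membrane anchor, had 171, 163, 172, 184 and 167 CPM in CK2i 1 to 5, against 185, 189, 179, 184 and 188 CPM in vehicle 1 to 5, so 4 of 5 CK2i libraries lay below all vehicle libraries (log2 -0.11 ± 0.04, edgeR adjusted p = 0.0775). Sdha, the flavoprotein that oxidises succinate, had 326, 306, 307, 327 and 313 CPM in CK2i 1 to 5, against 332, 335, 321, 335 and 336 CPM in vehicle 1 to 5. Here 3 of 5 CK2i libraries lay below all vehicle libraries (log2 -0.07 ± 0.03, edgeR adjusted p = 0.155).

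Complex III had 8 of 9 genes below 0, a median of -0.07 and 0 genes that passed the edgeR test (0 also with DESeq2). At an unadjusted edgeR p under 0.05, 2 of the 9 were lower, beside 16.6% of all genes tested. The 4 core members (Cyc1, Uqcrc1, Uqcrc2 and Uqcrfs1) had a median of -0.07 and the 5 small accessory members -0.06. Uqcrc2, a core protein, had 212, 189, 206, 221 and 196 CPM in CK2i 1 to 5, against 234, 225, 214, 223 and 227 CPM in vehicle 1 to 5. CK2i 4 lay among the vehicle libraries and the other CK2i libraries below them (log2 -0.13 ± 0.05, edgeR adjusted p = 0.0763). The Rieske iron-sulfur protein gene Uqcrfs1 had 106 ± 4.45 CPM in CK2i and 111 ± 3.48 CPM in vehicle libraries (edgeR adjusted p = 0.222). Uqcr11 had 110 ± 9.09 CPM in CK2i and 114 ± 4.17 CPM in vehicle libraries (edgeR adjusted p = 0.5), and Uqcrq, the 1 gene above 0, had 43.8 ± 2.22 CPM in CK2i and 43.2 ± 2.82 CPM in vehicle libraries (log2 0.02 ± 0.05, edgeR adjusted p = 0.817).

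Complex IV held both the largest and the most positive difference. Cox6b2, known as the testis isoform of subunit 6B, fell by 30.0% in CK2i libraries. It had 18.6, 14.5, 17.6, 18.7 and 11.3 CPM in CK2i 1 to 5, against 22.6, 21.7, 24.5, 21.5 and 25.1 CPM in vehicle 1 to 5. The groups did not overlap, and CK2i 5 lay farthest below the vehicle libraries. The log2 difference was -0.52 ± 0.13 (edgeR adjusted p = 0.0297), and without CK2i 2 and CK2i 5 it was -0.34 ± 0.07 and still passed (edgeR adjusted p = 0.0488). Cox6a1, the widely expressed isoform of subunit 6A, had 125, 117, 127, 135 and 126 CPM in CK2i 1 to 5, against 144, 139, 134, 139 and 151 CPM in vehicle 1 to 5. CK2i 4 alone reached the vehicle range (log2 -0.17 ± 0.05, edgeR adjusted p = 0.0387; 0.159 without CK2i 2 and CK2i 5). Of 13 tested genes of complex IV, 11 were below 0, with a median of -0.08. Above 0 were Cox5a, with 122 ± 3.58 CPM in CK2i and 119 ± 4.69 CPM in vehicle libraries (edgeR adjusted p = 0.534), and Cox4i2, which at 0.485 ± 0.109 CPM in CK2i and 0.459 ± 0.181 CPM in vehicle libraries was too low to show a change (log2 0.08 ± 0.30, edgeR adjusted p = 0.868).

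**Figure D4:**
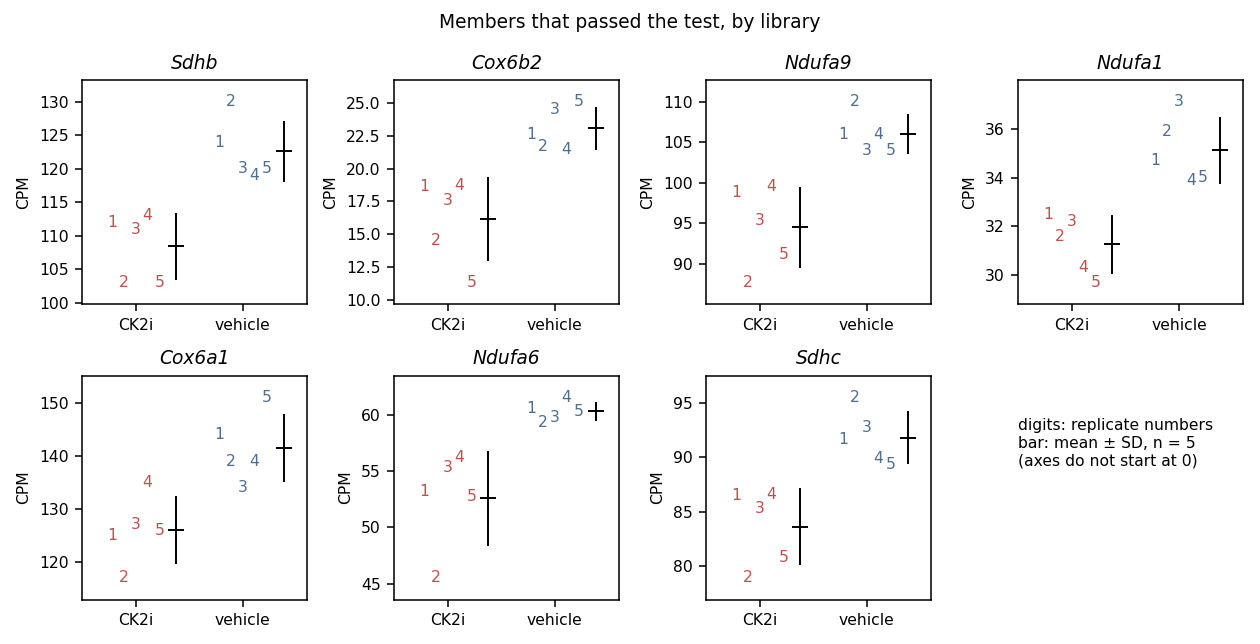
CPM of the 7 members that passed the test, in each CK2i (left) and vehicle (right) library, with replicate numbers as symbols, mean ± SD (n = 5) as bars and axes that do not start at 0. In 6 of the 7 panels no CK2i library reaches the vehicle range; in the Cox6a1 panel CK2i 4 does.

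Several subunits of complexes IV and V have alternative genes, and their balance was read as the share of the summed FPKM of each isoform set. Cox6b2 took 10.7%, 9.71%, 10.3%, 10.4% and 7.03% of the Cox6b sum in CK2i 1 to 5, against 12.3%, 11.9%, 13.9%, 12.4% and 13.7% in vehicle 1 to 5. All CK2i shares lay below all vehicle shares, with means of 9.63% ± 1.5 in CK2i and 12.8% ± 0.898 in vehicle libraries (SD, n = 5 each). The difference of -3.2 percentage points had p = 0.00794 by a two-sided exact permutation test, the smallest value that exchanging libraries between the groups allows, and 0.0238 after Benjamini-Hochberg adjustment over the 3 sets tested. The permutation test was not planned in advance, and not every isoform set was tested. The share rests on the same libraries as the Cox6b2 CPM, whose groups already did not overlap, so it is not separate evidence. Without CK2i 2 and CK2i 5 it was -2.35 points with an adjusted p of 0.107 by the exact permutation test, where the unadjusted 0.0357 is the smallest value reachable. The widely expressed Cox6b1 supplied the rest and, on its own, had 146 ± 8.53 CPM in CK2i and 155 ± 4.07 CPM in vehicle libraries (edgeR adjusted p = 0.187). Cox7a2l, which is known to help join complexes III and IV, took 46.2% ± 1.01 of the Cox7a sum in CK2i and 46.8% ± 1.94 in vehicle libraries (exact permutation p = 0.579, adjusted 0.579), and nearly all the rest was Cox7a2. Atp5g3 took 48.3% ± 1.39 of the listed subunit c sum, in which Atp5g2 is at 0, in CK2i and 47.7% ± 0.63 in vehicle libraries (exact permutation p = 0.413, adjusted 0.579), beside Atp5g1. Other isoforms were minor: Cox4i2, known from lung and low oxygen, held 0.177% ± 0.0364 of the Cox4 sum in CK2i and 0.163% ± 0.0625 in vehicle libraries, Cox7a1 held 0.324% ± 0.121 of the Cox7a sum in CK2i and 0.282% ± 0.107 in vehicle libraries, and Cox8a was the one Cox8 gene with counts. The CPM of the main isoforms did not pass the edgeR test: Cox4i1 (279 ± 10.8 CPM in CK2i and 288 ± 8.13 CPM in vehicle libraries, adjusted p = 0.4), Cox7a2 (log2 -0.07, adjusted p = 0.383), Cox7a2l (log2 -0.10, adjusted p = 0.165) and Cox8a (log2 -0.05, adjusted p = 0.39).

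In complex V all 16 tested genes were below 0 and 0 passed the edgeR test (1 with DESeq2). At an unadjusted edgeR p under 0.05, 2 of the 16 were lower, beside 16.6% of all genes tested. Differences of the 16 were narrow, from -0.11 (Atp5e) to -0.02 (Atp5d), both of which are subunits of the F1 head. Their median was -0.07. The 5 F1 genes had a median of -0.08, the 2 tested ring genes -0.08 and the 9 stalk, membrane and other genes -0.06. Atp5b had 1560, 1380, 1520, 1600 and 1440 CPM in CK2i 1 to 5, against 1600, 1620, 1510, 1580 and 1610 CPM in vehicle 1 to 5. CK2i 2 and CK2i 5 lay below the vehicle libraries and the other 3 within them (log2 -0.08 ± 0.05, edgeR adjusted p = 0.234). Atp5e had 91.4 ± 6.32 CPM in CK2i and 98.4 ± 3.12 CPM in vehicle libraries (edgeR adjusted p = 0.157). Atp5j, a stalk subunit, was the 1 gene of the complex whose groups did not overlap, with 80 ± 2.18 CPM in CK2i and 85.2 ± 1.29 CPM in vehicle libraries (log2 -0.09, edgeR adjusted p = 0.0771). The ring genes Atp5g1 (log2 -0.105, adjusted p = 0.214) and Atp5g3 (log2 -0.05, adjusted p = 0.359) and the low Atp5s (log2 -0.08, adjusted p = 0.616) did not pass the edgeR test.

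The members moved together over the 10 libraries. Pearson's r between the log2 CPM of a member and the mean of the other members had a median of 0.826 over 87 members and ran from 0.133 (Uqcrq) to 0.97 (Ndufa7), and 60 members were above 0.7. These points share library depth, scaling and treatment group, and CK2i 2 and CK2i 5 lie lowest in the members' mean. No like median of r was taken for other sets of genes. The mean deviations in CK2i 2 and CK2i 5 were -0.18 and -0.11 for the members. They were -0.18 and -0.12 for mitochondrial ribosomal protein genes and -0.17 and -0.15 for the protein import list. Outside the members, the 5 genes whose log2 CPM followed the members' mean most closely were Psmd8, a proteasome subunit (r = 0.987), Mtx2, an outer membrane protein (r = 0.976), Tfam, which packages mitochondrial DNA (r = 0.976), the mitochondrial ribosomal protein gene Mrpl41 (r = 0.973) and Chchd2, a mitochondrial intermembrane protein (r = 0.972). None of the 5 passed the edgeR test, with adjusted p from 0.063 to 0.171.

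Lists of the genes around the chain showed small negative medians of like size, with 1 exception. Counts of genes that fell are to be read against the 6.76% of all genes tested that did. Of 14 genes for cytochrome c and ubiquinone synthesis 1 fell (Coq9, which aids a late step of ubiquinone synthesis, log2 -0.19 ± 0.05, edgeR adjusted p = 0.0435) and the median was -0.05. Of 42 tested assembly factors not covered by the member names 1 fell, Dmac1, which acts in building the complex I membrane arm, with 29.0 ± 2.04 CPM in CK2i and 34.8 ± 1.32 CPM in vehicle libraries (log2 -0.26 ± 0.05, edgeR adjusted p = 0.0206), and the median was -0.09. Of 7 genes for ATP export and the ATP synthase inhibitor 1 fell. That gene was Atpif1, which blocks ATP hydrolysis by complex V, with 257, 218, 247, 252 and 222 CPM in CK2i 1 to 5, against 297, 272, 275, 277 and 296 CPM in vehicle 1 to 5. No CK2i library reached the vehicle range (log2 -0.245 ± 0.05, edgeR adjusted p = 0.0229, and 0.0877 without CK2i 2 and CK2i 5).

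Of 23 tested citric acid cycle and pyruvate dehydrogenase genes 2 fell, and their median was -0.07. The larger was Pdk2, a kinase that switches pyruvate dehydrogenase off, with 4.41, 3.33, 3.55, 3.44 and 2.74 CPM in CK2i 1 to 5, against 5.41, 5.72, 6.18, 6.39 and 5.56 CPM in vehicle 1 to 5. The groups were well separated (log2 -0.74 ± 0.12, edgeR adjusted p = 0.0104; -0.63 and 0.0415 without CK2i 2 and CK2i 5). The other was Suclg2, a subunit of succinyl-CoA ligase (log2 -0.17, edgeR adjusted p = 0.0497). Of 77 mitochondrial ribosomal protein genes 3 fell, Mrpl54 (log2 -0.25, edgeR adjusted p = 0.0114), Mrpl52 (-0.33, 0.0425) and Mrpl50 (-0.21, 0.0425), and the median was -0.07. Of 14 genes of mitochondrial DNA expression 1 fell, the rRNA methyltransferase gene Tfb1m (log2 -0.17, edgeR adjusted p = 0.0477), and the median was -0.06. The protein import list was taken by names that begin with Timm or Tomm. Of its 24 tested genes 1 fell, Timm17b of the inner membrane channel (log2 -0.18, edgeR adjusted p = 0.0402), and the median was -0.07. By its name Timmdc1 (log2 -0.186) is in this list, and it is also in that of the assembly factors. With 1 library left out in turn, Pdk2 and Mrpl54 passed in all 10 fits, Dmac1 in 8 (not without CK2i 5 or vehicle 1) and Atpif1 in 7 (not without CK2i 5, vehicle 1 or vehicle 5), while Mrpl52 passed in 4, Mrpl50 and Timm17b in 3, Coq9 and Suclg2 in 2 and Tfb1m in 0. Without both CK2i 2 and CK2i 5, Pdk2 was the 1 gene of these 7 lists that passed, and the edgeR adjusted p was 0.0502 for Mrpl54, 0.0896 for Dmac1, 0.14 for Mrpl52, 0.181 for Timm17b, 0.194 for Coq9, 0.203 for Tfb1m, 0.222 for Suclg2 and 0.23 for Mrpl50. By the edgeR test 0 genes of these 7 lists rose (0 also with DESeq2). The list of transcriptional regulators of respiratory genes was the exception. Of 10 tested, 0 passed the edgeR test (0 also with DESeq2), 8 were above 0, and the median was 0.07. At an unadjusted edgeR p under 0.05, 2 were higher and 1 was lower, beside 16.6% of all genes tested that were lower. With 1 library left out, Gabpb2 was called higher in 1 fit (without CK2i 3) and Myc was called lower in 1 fit. The list holds Nrf1 (log2 -0.01, edgeR adjusted p = 0.799), Gabpa (0.06, 0.278), Pprc1 (0.21, 0.112) and, as its most negative gene, Myc (-0.185, 0.102). The coactivator gene Ppargc1a, at 0.0593 CPM in CK2i and 0.0607 CPM in vehicle libraries, was too low to be tested.

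**Figure D5:**
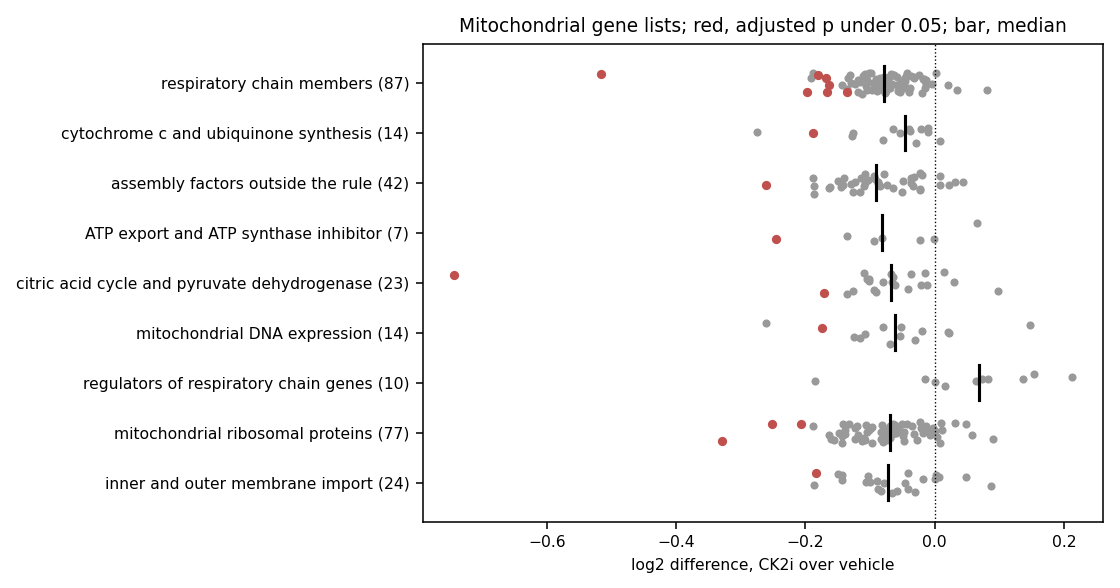
Log2 differences (CK2i over vehicle) of the tested members and of 8 lists of related mitochondrial genes, with the number tested in parentheses, genes past an adjusted p of 0.05 in red and the median as a bar. Medians lie between -0.09 and -0.05 except for the regulators at 0.07, and Pdk2 at -0.74 is the most negative gene shown.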

How the data were processed

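The deposited table holds, for each of the 10 libraries, estimated counts and FPKM per gene, made by the authors with Bowtie2 and RSEM 1.2.31 on mm10, per the submitters' processing notes, which also name DESeq2. The deposited estimated counts are whole numbers; FPKM scales them by length and depth. The annotation, the strand setting and any filter were not given in the sources used here. Symbols came from GENCODE M21 (37570 of 38887 identifiers; the 1317 others held at most 0.536% of counts), and 2 empty lines were left out.

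Counts were tested with edgeR 4.0.16 in R 4.3.3 (quasi-likelihood, TMM, filterByExpr with a minimum count of 10, group as the only term, Benjamini-Hochberg over 14346 genes, two-sided, 0.05). The biological coefficient of variation was 14.2%. The code was tested on simulated data. Libraries of a group differed beyond sampling noise (chi-square per degree of freedom 10.3 to 67.8).

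Named were called members, the extremes of difference and level in each complex, isoform sets, the 4 Sdh genes, called genes of pathway lists (at most 3 per list and direction) and the 5 most alike genes. Members and lists were chosen with earlier results of these data known. Alternatives were DESeq2 1.42.0, RLE scaling, no filter, limma 3.58.1 on log2(FPKM + 1) and log2(FPKM + 0.1), a replicate block, a surrogate variable (sva 3.50.0) and left-out libraries. Cox6a2 and a second Atp5o identifier were not analysed here. The stem and progenitor marker list as a whole is not reported here.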

Additional observations from a re-analysis of the deposited data

Results flagged for a closer look

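Sdha, the flavoprotein gene of complex II, had 321 CPM in vehicle 3, below the 332 to 336 CPM of the other 4 vehicle libraries, and the gap took 0.739 of the range of the group, against a 95% critical value of 0.71 for 5 samples (Dixon). Of 64 groups of values examined this was the 1 set apart, and chance sets apart about 1 group in 20.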

How the results depend on the processing

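The median of the members stayed below 0 under every alternative run (-0.098 to -0.054 with 1 library left out, -0.041 without CK2i 2 and CK2i 5, -0.031 with a surrogate variable), while the calls moved. Members below 0 numbered 83 in the main fit, 77 to 86 with 1 library left out, 71 without CK2i 2 and CK2i 5 and 62 with the surrogate variable. All genes called numbered 1892, and 3176 with DESeq2, 1197 and 1223 with limma on log2(FPKM + 1) and log2(FPKM + 0.1), 175 without CK2i 2 and CK2i 5, 61 with 1 surrogate variable (correlation with group 0.65) and 446 to 3198 with 1 library left out. Members that fell numbered 7, and 12 with DESeq2, 4 with no filter, 3 and 3 with limma at each pseudocount, 1 without CK2i 2 and CK2i 5 (Cox6b2), 0 with the surrogate variable and 0 to 10 with 1 library left out. Over all genes, 970 of 14346 fell in the main fit, 1463 of 22935 with DESeq2 and 719 of 22935 with no filter. With limma 591 and 593 of 14346 fell, without CK2i 2 and CK2i 5 102 of 14583, and with the surrogate variable 29 of 14346. Members that rose numbered 0 in every fit run. Same-numbered libraries had r from -0.159 to 0.228 in their deviations, and 3 of 10 libraries correlated best with their own number. No pairing by number was seen, but so few libraries cannot exclude it. A replicate block gave 1139 called genes, of which 682 fell, and 0 members that fell. Of 468 refits of 26 named members 17 changed sign, all of genes that did not pass the test. Ndufaf8 gave -0.007 with no filter and -0.03 to 0.033 with 1 library left out. For Uqcrq the value was -0.006 to 0.054 with 1 library left out, -0.011 without CK2i 2 and CK2i 5 and -0.032 with the surrogate variable, and for Cox4i2 it was -0.111 to 0.208 with 1 library left out. Without CK2i 2 and CK2i 5 and with the surrogate variable, Uqcr11 gave 0.024 and 0.056, Atp5s 0.004 and 0.07, and with the surrogate variable Cox8a gave 0.007. The cause was not tested. The permutation test of the isoform shares was not planned in advance, and leaving out libraries for the shares was added after seeing the data. The Cox6b2 share then differed by -3.46 to -2.54 points, and since its groups do not overlap, the exact p was the smallest reachable in each of those fits. Depth limits Cox4i2, Cox7a1 and Ndufa4l2.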
